A study of Mus musculus with 6 samples.

Results

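OFF bipolar nuclei that resemble types 1 and 2 were selected from retinas of C57BL/6J mice assayed by single-nucleus multiome sequencing, in which RNA and open chromatin (ATAC) were read from the same nucleus. A nucleus had at least 500 RNA molecules counted by unique molecular identifiers (UMIs) and at most 10% of them from mitochondrial genes. It then needed at least 8 UMIs summed over Neto1, Nxph1 and Tacr3 and at least 1 over Vsx1, Scgn, Lhx4 and Cabp5. It was also limited to 2 UMIs summed over Grm6 and Trpm1, and to 1 over Gad1 and Gad2. This gave 78 nuclei of 27225 kept. There were 24 of 9905 in the WIF1 library at 2 weeks, 22 of 9637 in the WIF1 library at 4 weeks and 32 of 7683 in the control library. Because RNA counts chose these nuclei, their RNA levels against other cells are descriptions.

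The 3 groups were WIF1 overexpression at 2 weeks, WIF1 overexpression at 4 weeks and a naïve control, each with 1 library, from a design of 2 eyes per group. WIF1 is a secreted inhibitor that binds Wnt ligands, and the study asked about Wnt signalling and the transcription factor TCF4. The design describes AAV2/2 vectors that drive Wif1 from a CMV promoter, one with a GFP reporter and one without, and it leaves unsaid which of them was given. No library came from an eye given a control vector, so injection, vector and Wif1 cannot be told apart. Retinas were dissociated with papain before nuclei were extracted.

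Bipolar cells carry the signal of photoreceptors to the inner retina. OFF bipolar cells sense cone glutamate through ionotropic AMPA and kainate receptors and respond when light dims. ON bipolar cells use the metabotropic receptor mGluR6, encoded by Grm6, which closes the TRPM1 channel, and they keep the transcription factor Islet1. In mouse, types 1 and 2 are OFF cone bipolar cells that stratify in the outermost inner plexiform layer, where the neurokinin receptor encoded by Tacr3 has been used to stain them. The protein of Syt2 marks type 2 cells.

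Promoter sequences of Isl1, the ON bipolar transcription factor, and of Cdh8, an OFF bipolar cadherin, are shown for their ATAC counts, which the selection did not use. These counts differed from those of the other bipolar nuclei at 2 weeks and in the control. At 4 weeks the interval of Isl1 held 1 and no peak covered the Cdh8 promoter. The promoter of Vsx1, a homeobox gene of some cone bipolar types, is shown because its peak held counts in these nuclei in each library. The sequences are from RefSeq on GRCm38.p6 (mm10), 250 bases before to 50 after the start, written 5′ to 3′ on the gene's own strand. Capitals mark the OTX2 and CRX core TAATCC, searched on both strands together with the homeodomain core TAATTA. They lie at chr13:116309639-116309938 for Isl1, chr8:99416422-99416721 for Cdh8 and chr2:150689088-150689387 for Vsx1, all on the minus strand.
Isl1: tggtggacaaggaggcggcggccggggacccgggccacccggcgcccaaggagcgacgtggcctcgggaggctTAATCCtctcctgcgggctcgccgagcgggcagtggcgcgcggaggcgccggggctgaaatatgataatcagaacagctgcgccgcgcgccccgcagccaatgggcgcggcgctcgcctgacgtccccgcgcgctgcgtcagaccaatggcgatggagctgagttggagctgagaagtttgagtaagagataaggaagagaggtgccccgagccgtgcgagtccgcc
Cdh8: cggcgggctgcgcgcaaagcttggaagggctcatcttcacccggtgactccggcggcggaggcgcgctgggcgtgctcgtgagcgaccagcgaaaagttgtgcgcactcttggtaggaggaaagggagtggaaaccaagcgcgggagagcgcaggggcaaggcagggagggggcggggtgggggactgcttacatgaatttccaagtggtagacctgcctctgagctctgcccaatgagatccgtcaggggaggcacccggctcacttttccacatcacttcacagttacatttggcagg
Vsx1: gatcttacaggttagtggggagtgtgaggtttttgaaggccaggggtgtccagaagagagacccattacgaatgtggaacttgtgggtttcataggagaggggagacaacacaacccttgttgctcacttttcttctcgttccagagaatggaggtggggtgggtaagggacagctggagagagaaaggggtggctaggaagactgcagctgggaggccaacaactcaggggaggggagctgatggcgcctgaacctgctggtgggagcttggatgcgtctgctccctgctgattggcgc
The Isl1 window holds 1 TAATCC, and the Cdh8 and Vsx1 windows hold neither core. Of 32851 mouse promoter windows of this length, 7.06% hold TAATCC and 5.29% hold TAATTA.

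The libraries held 14568384 UMIs at 2 weeks, 19997276 at 4 weeks and 21805441 in the control, and the kept nuclei had medians of 838, 1256 and 1779 UMIs in that order. Between 142 and 207 barcodes were shared by each pair of libraries, and 0 were shared between the selected nuclei of any pair. The selected nuclei summed to 54060 UMIs at 2 weeks, 69406 at 4 weeks and 161175 in the control, with medians of 1962, 2915 and 3957. The control set included 4 nuclei of at least 10000 UMIs, which held 28.4% of its UMIs and of which 1 was called a doublet. Doublets were called for 2 of the 24, 3 of the 22 and 3 of the 32 nuclei and were kept. Levels are given as CPM, the UMIs of a gene per 1000000 UMIs, both summed over the nuclei that one library has of a class. With 1 library per group there is no replicate and no test. Intervals in parentheses are exact 95% intervals that cover counting error only.

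Of the rule's genes, Nxph1 and Neto1 were found in most nuclei, which the rule itself favours, and the others in fewer. Nxph1, which encodes a neurexin ligand, had a UMI in 23 of 24 nuclei at 2 weeks, 22 of 22 at 4 weeks and 30 of 32 in the control. Neto1, an auxiliary subunit of kainate receptors, had a UMI in 20, 22 and 25 of them. Its UMIs per nucleus reached 16 at 2 weeks, 21 at 4 weeks and 31 in the control, with medians of 4.5, 6 and 4. Tacr3 was found in 12, 19 and 19 nuclei, and Vsx1 in 5, 7 and 12. Grik1, the kainate receptor subunit of OFF bipolar cells and no part of the rule, was found in 21, 22 and 28 nuclei, at 2719 CPM at 2 weeks, 2608 at 4 weeks and 1470.5 in the control. In ON cone bipolar nuclei Grik1 stood at 236, 169 and 159 CPM in the same order, and in rod-rich nuclei, which should lack it, at 14.7, 8.92 and 21.1 CPM. A Grik1 UMI was found in 1.16%, 1.03% and 1.39% of the rod-rich nuclei, whose medians of 712, 1051 and 1193 UMIs were lower than those of the selected nuclei. Otx2, a homeobox factor of photoreceptors and bipolar cells, was found in 9, 10 and 24 nuclei. Summed over each library, Grik1 in the selected nuclei was above its level in ON cone bipolar nuclei. Single nuclei differed, with 0 Grik1 UMIs in 2-week nuclei 3, 11 and 13 and in control nuclei 4, 11, 14 and 24, numbered by falling depth. Markers of several other cells were low. Over the 9 amacrine markers the nuclei held 1, 2 and 19 UMIs, over the 8 ganglion cell markers 0, 0 and 2, over the 4 horizontal cell markers 2, 0 and 1, over the 11 microglial markers 5, 3 and 9, over the 9 lymphocyte markers 0, 0 and 2, and over the 8 vascular markers 1, 2 and 8. Rod genes held 642, 558 and 3649 UMIs and cone genes 27, 34 and 256, which are taken up with the photoreceptor RNA. Rod bipolar markers held 13, 2 and 61 UMIs. Müller glia markers held 11, 41 and 42 UMIs, with a 4-week ratio to the control of 2.27 (1.44 to 3.57).

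**Figure D1:**
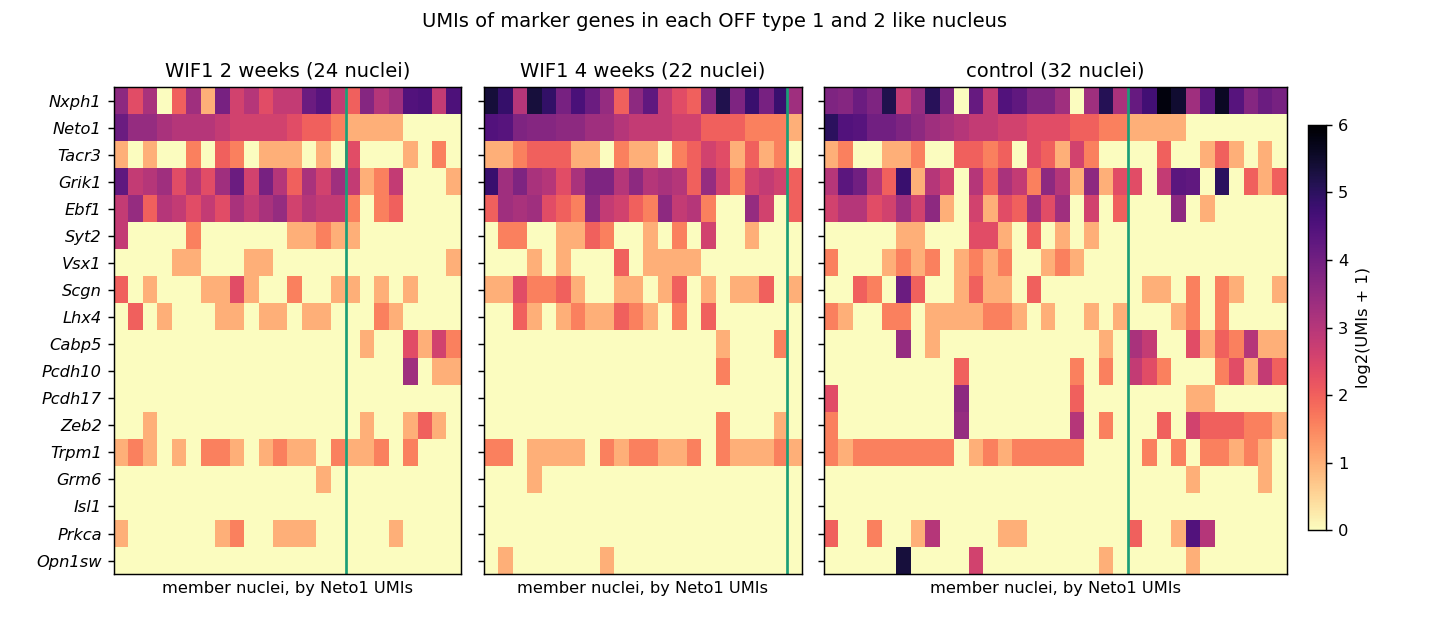
Heat map of log2(UMIs + 1) of 18 marker genes (rows) in each selected nucleus (columns), in panels of 24 nuclei at 2 weeks, 22 at 4 weeks and 32 in the control, ordered by Neto1 UMIs. Nuclei left of the green line have at least 2 Neto1 UMIs (16, 21 and 21). Isl1 has no UMI in any column, and Nxph1 has one in 75 of the 78.

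The limit on Grm6 and Trpm1 removed more nuclei than it kept. Of the nuclei that met every other condition it kept 40.7% at 2 weeks (24 of 59), 23.7% at 4 weeks (22 of 93) and 34% in the control (32 of 94). Of those 59, 93 and 94 nuclei, 57, 87 and 87 had 0 UMIs of Grm6, so nearly all were removed for Trpm1. The nuclei removed with at most 1 Grm6 UMI numbered 35 at 2 weeks, 69 at 4 weeks and 61 in the control, and are called here the nuclei over the Trpm1 limit. They were deeper, with medians of 2735, 4274 and 4630 UMIs. By construction they had more Trpm1, at 1601, 1242 and 1204 CPM, against 425, 389 and 267 CPM in the selected nuclei. Their Isl1, which the rule did not use, rested on 1, 3 and 4 UMIs (9.47, 8.78 and 13.3 CPM), and the selected nuclei had 0 UMIs of Isl1 in each library. ON cone bipolar nuclei were required to hold a UMI of Grm6 or Isl1, so selection in part set their Isl1 level. Isl1 stood at 649, 638 and 609 CPM in them and at 615, 612 and 528 CPM in rod bipolar nuclei, which were chosen without Isl1. In rod-rich nuclei it was at 6.31, 9.39 and 13.6 CPM, so the nuclei over the limit held Isl1 at about the level of cells that lack it.

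Trpm1 and Grm6 counts are given as a description, since the rule and the other classes used both genes. The nuclei over the limit held 169, 141 and 90.2 Trpm1 UMIs per Grm6 UMI at 2 weeks, 4 weeks and in the control, with intervals of 29.9 to 6714, 48 to 688 and 34.9 to 333. Their selection at no more than 1 Grm6 UMI set this ratio high, so nothing is read from it. ON cone bipolar nuclei held 2.75, 2.48 and 2.61, rod bipolar nuclei 8.23, 7.49 and 8.53, and rod-rich nuclei 0.99, 2.86 and 2.57. OFF nuclei of types 3 and 4, which were chosen under the same limit of 2 UMIs, held 16.6, 14.8 and 16.9, with Trpm1 at 206, 195 and 135 CPM. Below, values are given also for the wider set, the selected nuclei together with those over the limit (59, 91 and 93 nuclei). The wider set was added after these values were seen.

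**Figure D2:**
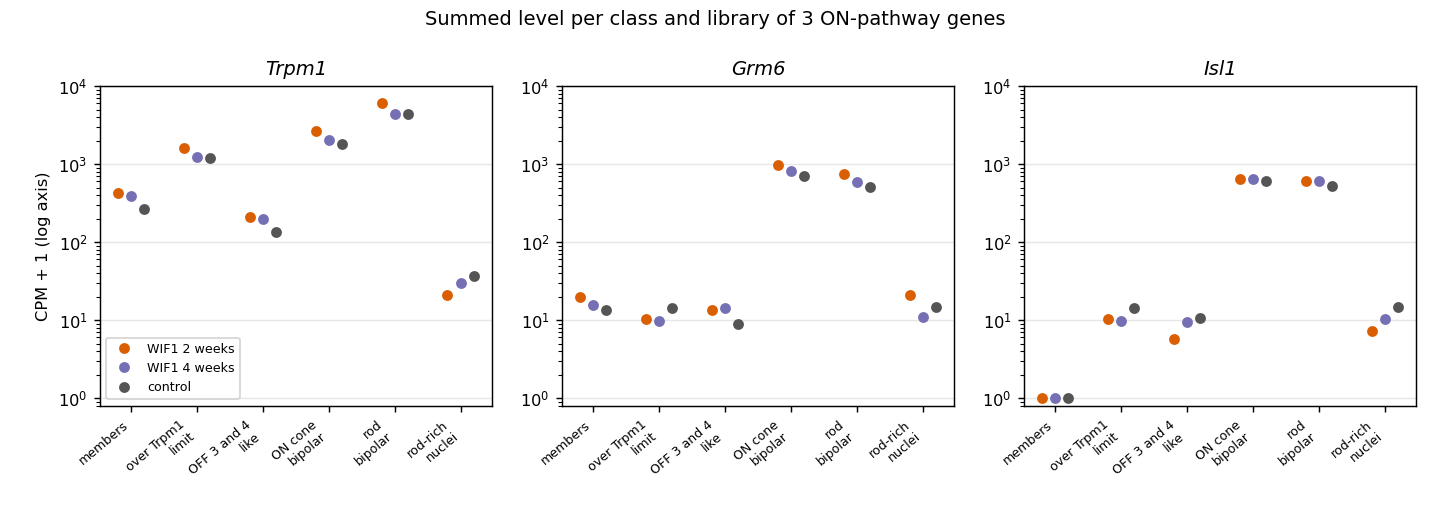
CPM + 1 (log axis) of Trpm1, Grm6 and Isl1 by class of nuclei and library (2 weeks, 4 weeks, control), as points without intervals. Trpm1 is at 1601, 1242 and 1204 CPM in the nuclei over the Trpm1 limit, where Isl1 is between 8.78 and 13.3 CPM. Isl1 is at 609 to 649 CPM in ON cone bipolar nuclei, a class that its RNA helped to choose.

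The nuclei near the thresholds are given once as a description. Nuclei with 8 to 10 UMIs of Neto1, Nxph1 and Tacr3 numbered 9 at 2 weeks, 1 at 4 weeks and 4 in the control, with Grik1 at 3543, 3300.3 and 1022 CPM. Those just outside, with 5 to 7 UMIs, numbered 2, 1 and 3, with Grik1 at 2116, 747 and 666 CPM. At the Trpm1 and Grm6 limit, 7, 9 and 20 nuclei held exactly 2 UMIs and had Grik1 at 2696, 3029 and 1522 CPM. The 9, 8 and 10 nuclei with 3 UMIs, just outside, had it at 2549.9, 2491 and 1473 CPM.

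RNA levels are set beside those of the other bipolar nuclei as a description. The other bipolar nuclei here are OFF nuclei of types 3 and 4, ON cone and rod bipolar nuclei with at most 2 UMIs of Neto1, Nxph1 and Tacr3. Of 170 genes with at least 30 UMIs in each set of selected nuclei, 38 were at least 2-fold higher than in them in all 3 libraries and 1 was at least 2-fold lower. The 170 genes passed through their counts in the selected nuclei, so nothing is read from this split. Galntl6, a glycosyltransferase family member, was at 4883, 6959 and 2538 CPM in selected nuclei at 2 weeks, 4 weeks and in the control, against 18.6, 34.7 and 27.9 CPM in other bipolar nuclei. Ebf1, a helix-loop-helix transcription factor, was at 2016, 1570.5 and 676 CPM, against 9.54, 6.01 and 22.2 CPM. Both were thus near absent from the other bipolar types. Ncam2, a homophilic adhesion molecule, was at 592, 489.9 and 974 CPM, against 3.61, 3.26 and 20 CPM. Tmeff2, a transmembrane protein with follistatin domains, was at 1258, 1671 and 937 CPM, against 14.9, 8.07 and 13.3 CPM. Grin2b, an NMDA receptor subunit, was at 555, 489.9 and 341 CPM, against 19.6, 9.79 and 22.7 CPM. OFF nuclei of types 3 and 4 alone had Grin2b at 63.6, 37 and 93.5 CPM. The secreted guidance factor Slit2 was high in other OFF nuclei as well. It stood at 7788, 11627 and 5814 CPM in selected nuclei. In OFF nuclei of types 3 and 4 it was at 3786, 4546 and 3591 CPM, and over all other bipolar nuclei at 725, 832 and 733 CPM.

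Pde1a, a calcium-activated phosphodiesterase, was at 1091, 1455 and 788 CPM in selected nuclei, against 58, 64.1 and 54.1 CPM in other bipolar nuclei. Adcy8, a calcium-activated adenylyl cyclase, was at 1036, 807 and 651 CPM, against 62.4, 57.2 and 55.9 CPM. Dlgap1, a postsynaptic scaffold protein, was at 1350.4, 1225 and 689 CPM, against 56.4, 42.4 and 79.2 CPM. The nuclei over the Trpm1 limit carried the same genes, with Galntl6 at 5448, 6797 and 4784 CPM and Ebf1 at 2217, 1593 and 1622 CPM.

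ATAC counts took no part in the selection and are given for these loci. RNA of Grm6, Trpm1 and Prkca chose the other classes, and RNA of Isl1 helped to choose the ON cone bipolar nuclei. RNA of Nxph1, Tacr3 and Vsx1 helped to choose the selected nuclei, and the other classes had at most 2 UMIs of Neto1, Nxph1 and Tacr3. ATAC ratios at genes of the rule are therefore descriptions. The libraries have separate peak lists, so ratios are given within a library, of selected over other bipolar nuclei. The selected nuclei held 208688, 149551 and 271227 ATAC counts at 2 weeks, 4 weeks and in the control. At the Isl1 promoter they held 0 counts in each library, where ON cone bipolar nuclei were at 44.8, 54.9 and 62.9 CPM and rod bipolar nuclei at 42.3, 47.4 and 51.3 CPM. The upper bounds of the ratio were 0.938, 1.11 and 0.565, so the difference was beyond counting error at 2 weeks and in the control and not at 4 weeks. In OFF nuclei of types 3 and 4 the Isl1 promoter also held few counts, 0, 2 and 8 (0, 1.41 and 6.95 CPM). In the nuclei over the Trpm1 limit the Isl1 promoter held 0, 0 and 2 counts, with upper bounds of 0.603, 0.331 and 0.625. Over the Isl1 gene body and 2000 bp on each side the selected nuclei held 4 counts in the control, a ratio of 0.265 (0.0319 to 0.967). The Grm6 body was lower in selected nuclei at 2 weeks, with a ratio of 0.112 (0.00282 to 0.624), while at 4 weeks (0.245, 0.0176 to 1.05) and in the control (0.468, 0.171 to 1.03) the interval reached 1. The Trpm1 body was at 0.57 (0.26 to 1.09) at 2 weeks, 0.31 (0.0514 to 0.996) at 4 weeks and 0.404 (0.162 to 0.837) in the control. The body of Prkca, the protein kinase of rod bipolar cells, was at 0.212 (0.0886 to 0.428), 0.456 (0.246 to 0.773) and 0.67 (0.42 to 1.01). Against OFF nuclei of types 3 and 4 alone these loci were not lower beyond counting error. The ratios were then 0.407, 0.889 and 1.96 for Grm6 and 1.36, 0.658 and 0.99 for Trpm1, and each interval held 1. For Prkca they were 0.498 (0.203 to 1.03), 1.33 (0.694 to 2.37) and 1.78 (1.04 to 2.97).

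Several loci held more counts in selected nuclei than in other bipolar nuclei, and others did not beyond counting error. Nxph1, Tacr3 and Vsx1, given among them, are genes of the rule. The Cdh8 promoter held 14 counts (67.1 CPM) in selected nuclei at 2 weeks, a ratio of 14.3 (5.32 to 32.8), and 11 counts (40.6 CPM) in the control, a ratio of 9.02 (2.82 to 23.9). No peak covered it at 4 weeks, when the Cdh8 body was at 2.19 (0.261 to 8.14). The nuclei over the Trpm1 limit stood at 73.9 and 64.6 CPM there, at 2 weeks and in the control. The body of Grik1 was at 1.85 (0.979 to 3.2) at 2 weeks, 1.31 (0.391 to 3.23) at 4 weeks and 0.945 (0.303 to 2.25) in the control, and each interval holds 1. The body of Slit2 was at 0.869 (0.259 to 2.14), 3.99 (1.44 to 8.89) and 1.72 (0.62 to 3.87), and that of Gria2 at 1.27 (0.487 to 2.72), 2.29 (0.913 to 4.78) and 0.608 (0.181 to 1.5). The body of Syt2, the synaptotagmin of type 2 cells, was higher in each library, with ratios of 2.09 (1.23 to 3.33) at 2 weeks, 4.62 (2.92 to 6.98) at 4 weeks and 2.27 (1.36 to 3.56) in the control. The body of Galntl6 was at 1.96 (1.04 to 3.39), 1.92 (0.954 to 3.47) and 2.23 (1.31 to 3.57). Nxph1 was at 6.22 (3.23 to 11), 5.13 (0.354 to 23.9) and 5.31 (1.01 to 18). Ebf1 was at 3.95 (1.83 to 7.5) at 4 weeks, while its intervals held 1 at 2 weeks (1.96, 0.888 to 3.77) and in the control (2.18, 0.92 to 4.43). The Vsx1 promoter was at 1.1 (0.0274 to 6.37) at 2 weeks, from 2 counts, 6.12 (1.93 to 14.9) at 4 weeks and 3.15 (1.12 to 7.25) in the control. It was open in ON cone bipolar nuclei too, at 23.3, 42.9 and 43 CPM against 9.58, 66.9 and 44.2 CPM in selected nuclei. A Tacr3 promoter peak was listed only in the control, where selected nuclei held 12 counts, a ratio of 16.8 (5.18 to 48.4). Otx2, shared by the bipolar types, was at 1.32, 1.05 and 1.3.

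**Figure D3:**
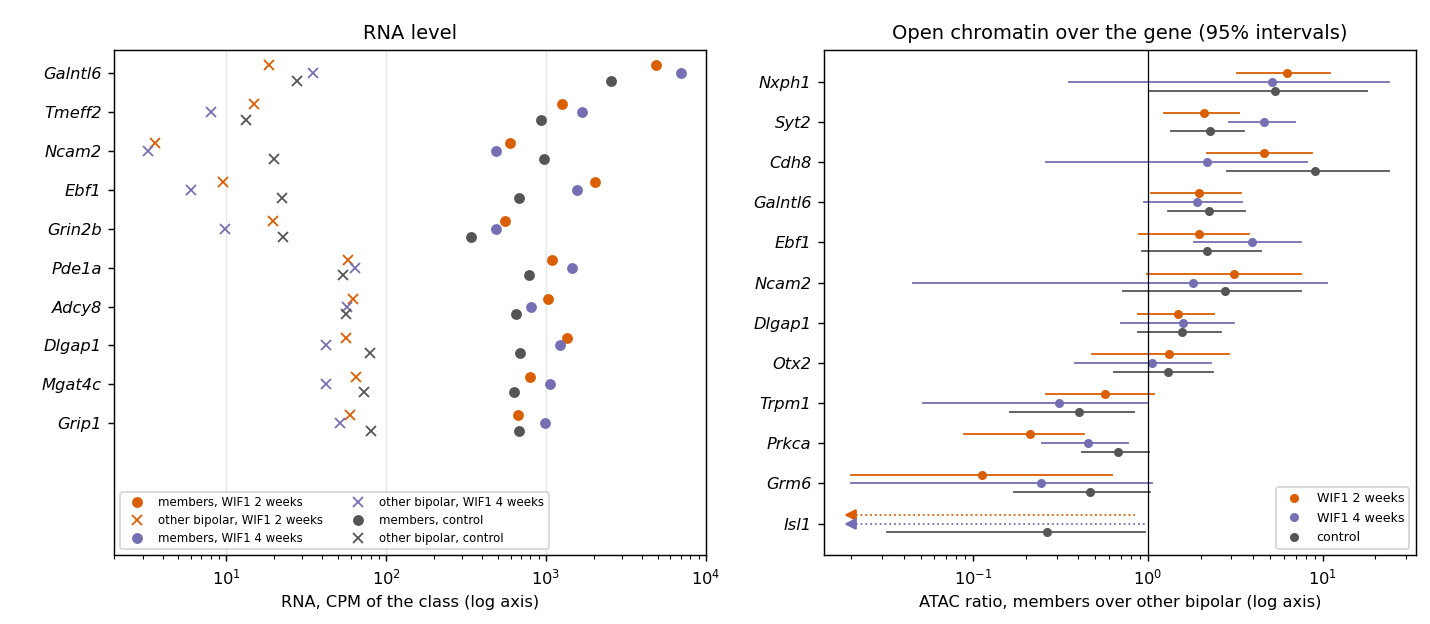
Left, RNA CPM (log axis) of 10 genes in selected nuclei (dots) and other bipolar nuclei (crosses) by library, ordered 2 weeks, 4 weeks and control. Right, the ATAC ratio of selected over other bipolar nuclei with 95% intervals (log axis, low ends cut at the axis limit, arrows for 0 counts). The ratios are over the gene body and 2000 bp on each side. Cdh8 lies at 4.62 at 2 weeks, 2.19 at 4 weeks and 9.02 in the control. Isl1 has 0 counts at 2 weeks and at 4 weeks and lies at 0.265 in the control.

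The nuclei differed among themselves, and a split by Neto1, a gene of the rule, is given as a description. Splitting at 2 Neto1 UMIs, a value chosen after the counts were seen, gave 16, 21 and 21 Neto1-positive nuclei and 8, 1 and 11 Neto1-low nuclei at 2 weeks, 4 weeks and in the control. The low nuclei were 33.3% (15.6 to 55.3), 4.55% (0.115 to 22.8) and 34.4% (18.6 to 53.2) of the set. Summed over libraries, Syt2 was at 12.5 CPM in low and 239.7 CPM in positive nuclei, and Galntl6 at 686 and 5386 CPM. Ebf1 was at 274 CPM in low nuclei and 1492 CPM in positive nuclei, and Vsx1 at 12.5 and 152 CPM. Low nuclei were higher for Pcdh10, a protocadherin of type 1 cells, at 486 CPM against 44 CPM in positive nuclei. Cabp5, a calcium-binding protein of several bipolar types, was at 573 and 73.4 CPM, and Cntn5, a contactin, at 374 and 4.89 CPM. Nxph1 was at 4862 and 3894 CPM, and Grik1 at 1296 and 2255 CPM. A UMI of Cabp5 or Pcdh10 was found in 5 of 8, 0 of 1 and 10 of 11 low nuclei, and in 0 of 16, 2 of 21 and 5 of 21 positive nuclei. The split was not clean. Control nuclei 12 and 24, numbered by falling depth, were Neto1-positive with 0 UMIs of Ebf1 and of Nxph1, and control nucleus 22 was Neto1-low with 11 Ebf1 UMIs.

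The type 1 markers were uneven between libraries. Pcdh17 and Pcdh10 together had 11 UMIs at 2 weeks, 2 at 4 weeks and 55 in the control, or 203, 28.8 and 341 CPM. The 2-week ratio to the control was 0.596 (0.281 to 1.15) and the 4-week ratio was 0.0844 (0.00998 to 0.32). They had 11, 2 and 72 UMIs in the wider set, with ratios of 0.441 and 0.0312 (0.0037 to 0.117). In Neto1-positive nuclei they had 0, 2 and 25 UMIs, with ratios of 0 (0 to 0.4) and 0.114 (0.013 to 0.456). All 20 Pcdh17 UMIs were in 5 control nuclei, 3 of them Neto1-positive. Syt2, the type 2 marker, had 14, 20 and 16 UMIs (259, 288 and 99.3 CPM), with ratios of 2.61 (1.18 to 5.7) and 2.9 (1.43 to 5.99), and of 1.14 and 1.31 in the wider set. With 1 Neto1-low nucleus at 4 weeks, any comparison with the control also compares different shares of Neto1-low nuclei. Values of Neto1-positive nuclei are given for that reason beside some of the main ones, and the part of those shares in each difference was not tested.

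As a share of kept nuclei, the selected nuclei were 0.242% (0.155 to 0.36) at 2 weeks, 0.228% (0.143 to 0.345) at 4 weeks and 0.417% (0.285 to 0.587) in the control. The ratios to the control were 0.582 (0.328 to 1.02) and 0.548 (0.303 to 0.973). Of all bipolar nuclei they made up 1.59%, 1.39% and 1.96%, with ratios of 0.81 (0.456 to 1.42) and 0.71 (0.393 to 1.26). Both intervals hold 1. Rules in UMIs depend on depth, and with each nucleus thinned to 1000 UMIs and a marker minimum of 3 the ratios were 1.31 and 0.937. Among nuclei of at least 1000 UMIs they were 1.19 and 0.62. No order of the shares held across these settings. The wider set made up shares of bipolar nuclei of 3.91%, 5.77% and 5.71%, with ratios of 0.685 (0.486 to 0.959) at 2 weeks and 1.01 (0.749 to 1.36) at 4 weeks.

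Levels were next compared with the control, each WIF1 library against the same control nuclei. A gene was counted as higher or lower past a 2-fold CPM ratio with at least 30 UMIs in the library where it was higher. At 2 weeks 13 of 766 genes (1.7%) were higher and 139 (18.1%) lower. At 4 weeks 18 of 800 (2.25%) were higher and 143 (17.9%) lower. The control had the most UMIs, so the minimum of 30 admits more genes that were lower than higher. Over genes of at least 10 UMIs in the pair, without that minimum, 44% of 4764 genes were above 1 at 2 weeks and 44.9% of 4925 at 4 weeks, with median log2 ratios of -0.01 and -0.09. For the wider set 48.5% of 8390 and 46.6% of 9277 genes were above 1.

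Among ionotropic receptor genes Gria2, the AMPA receptor subunit that limits calcium entry, had 237 UMIs at 2 weeks, 219 at 4 weeks and 258 in the control, or 4384, 3155 and 1601 CPM, and was found in 24 of 24, 21 of 22 and 32 of 32 nuclei. The ratios to the control were 2.74 (2.29 to 3.28) at 2 weeks and 1.97 (1.64 to 2.37) at 4 weeks. They were 2.26 and 1.52 in Neto1-positive nuclei and 2.07 (1.87 to 2.28) and 1.38 in the wider set. The 2-week difference of Gria2 was seen in other cone bipolar nuclei as well, at 1749, 926 and 872 CPM in OFF nuclei of types 3 and 4 and 1653, 1088 and 951 CPM in ON cone bipolar nuclei. Rod bipolar nuclei had 90.1, 103 and 118 CPM. Gria4, another AMPA subunit, had ratios of 1.68 (1.11 to 2.51) and 1.8 (1.24 to 2.59), and 1.13 and 1.15 in the wider set. Grik1 had ratios of 1.85 (1.49 to 2.28) and 1.77 (1.45 to 2.16), and 1.14 and 1.18 in the wider set. Grid1, a delta receptor, was at 0.612 (0.377 to 0.955) and 1.23 (0.889 to 1.69). Over the ionotropic glutamate receptor list 8 of 16 measured genes were above 1 at 2 weeks, with a median log2 ratio of 0.01, and 11 of 16 at 4 weeks, with a median of 0.56.

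Among genes of inhibitory input Glra1, a glycine receptor subunit, had 59, 56 and 80 UMIs, or 1091, 807 and 496 CPM, at 2 weeks, 4 weeks and in the control. The ratios were 2.2 (1.54 to 3.12) and 1.63 (1.13 to 2.32), and 1.8 (1.48 to 2.18) and 1.27 in the wider set. OFF nuclei of types 3 and 4 had Glra1 at 592, 357 and 383 CPM, so they were higher at 2 weeks too. Slc12a5, the neuronal chloride exporter, was at 684, 375 and 292 CPM, with a 2-week ratio of 2.35 (1.48 to 3.69), 2.09 in Neto1-positive nuclei and 1.69 in the wider set. Gabrb1, a GABA-A receptor subunit, went the other way at 2 weeks. It had 13, 47 and 96 UMIs, with ratios of 0.404 (0.207 to 0.724) and 1.14 (0.784 to 1.63), and 0.653 at 2 weeks in the wider set. Over the GABA and glycine receptor list 9 of 15 genes were above 1 at 2 weeks and 13 of 15 at 4 weeks, with medians of 0.20 and 0.22. In Neto1-positive nuclei 5 of 15 and 8 of 15 were above 1, with medians of -0.18 and 0.08, and in the wider set 7 of 16 and 13 of 17, with medians of -0.16 and 0.17.

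Adhesion genes lay on both sides of the control, and several abundant ones were above it. Cdh8 had 207, 245 and 311 UMIs, or 3829, 3530 and 1929.6 CPM, with ratios of 1.98 (1.66 to 2.37) and 1.83 (1.54 to 2.17), 1.75 and 1.39 in Neto1-positive nuclei, and 1.27 and 1.46 in the wider set. Ntng1, a netrin-G adhesion protein, was at 1.54 (1.28 to 1.86) and 1.98 (1.68 to 2.33). Nlgn1, a neuroligin, was at 1.65 (1.33 to 2.04) and 1.28 (1.03 to 1.59), and Cntnap5a, a contactin-associated protein, at 1.61 (1.2 to 2.15) and 1.53 (1.16 to 2). Slit2 was at 1.34 and 2, and at 1.01 and 1.37 in the wider set. Ncam2 stood below the control, at 0.608 and 0.503, but at 4 weeks its log2 ratio was 0.17 in Neto1-positive nuclei. Over the adhesion and wiring list 29 of 52 genes were above 1 at 2 weeks and 29 of 53 at 4 weeks, with medians of 0.18 and 0.08. In the wider set 30 of 58 were above 1 at 2 weeks, with a median of 0.02.

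Lsamp, an adhesion protein of the IgLON family, showed the lowest ratio of this list. It had 4 UMIs at 2 weeks, 3 at 4 weeks and 107 in the control, in 3, 2 and 11 nuclei, and 46 of the control UMIs came from 1 nucleus. The ratios were 0.111 (0.0298 to 0.294) and 0.0651 (0.0132 to 0.195), 0.105 (0.028 to 0.277) and 0.0444 (0.00899 to 0.134) in Neto1-positive nuclei, and 0.22 (0.121 to 0.372) and 0.262 (0.186 to 0.363) in the wider set. Control nuclei 6, 12 and 24 held 46, 9 and 21 Lsamp UMIs, and also 4, 3 and 11 UMIs of Pcdh17. Pcdh17 had 0 UMIs in the selected nuclei of both WIF1 libraries. These control nuclei were Neto1-positive, so the Neto1 split does not set them aside, and their part in the Lsamp ratios was not tested. Lsamp was below the control also in the nuclei over the Trpm1 limit, at 104, 126 and 300.3 CPM, and in rod bipolar nuclei, at 80.7, 188 and 409 CPM. ON cone bipolar nuclei were near the control, at 944, 1094 and 991 CPM. Rod-rich nuclei had 41.9, 39.8 and 118 CPM, in the same order, and the part of free RNA in this difference was not tested.

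Other genes above 2-fold at 2 weeks included Ebf1. Its UMIs were 109 in each library, or 2016, 1570.5 and 676 CPM, with ratios of 2.98 (2.27 to 3.92) and 2.32 (1.76 to 3.06), 2.65 and 1.55 in Neto1-positive nuclei, and 1.66 and 1.23 in the wider set. Cuedc1, a CUE domain protein, was at 888, 375 and 285 CPM, with a 2-week ratio of 3.11 (2.03 to 4.77) and 2.05 (1.56 to 2.68) in the wider set. Asic3, an acid-sensing channel, was at 610.4, 533 and 248 CPM, with ratios of 2.46 (1.5 to 4) and 2.15, and 2.2 and 1.37 in the wider set. The noncoding RNA Meg3 had a 2-week ratio of 2.25 (1.73 to 2.91), and 1.66 in the wider set. Phactr1 and AC149090.1 had 2-week ratios of 2.62 and 2.27. Of these 6 genes, Cuedc1, Asic3 and AC149090.1 (2.19) were still above 2-fold in the wider set.

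Among the named genes at 4 weeks the highest ratio was that of Osbpl9, a lipid transfer protein, with 15, 42 and 32 UMIs and a ratio of 3.05 (1.88 to 4.99), or 1.8 in the wider set. Galntl6 ranked first outside the rule by the lowest of its 3 library ratios over other bipolar nuclei. It had 264, 483 and 409 UMIs, with ratios to the control of 1.92 (1.64 to 2.25) and 2.74 (2.4 to 3.14). They were 1.58 and 1.8 in Neto1-positive nuclei, and 1.31 and 1.71 in the wider set. Tacr3 was at 2.21 (1.4 to 3.49), or 1.42 in the wider set, and Kcnb2, a delayed rectifier channel, at 2.28 (1.75 to 2.98), or 1.3 in the wider set. Fstl5, Pak3, Akap13 and Nebl had ratios of 2.48, 2.74, 2.55 and 2.44. Neto1 and Nxph1 were at 1.98 and 1.56. Of the rule's marker genes 6 of 8 were above the control at 2 weeks and 7 of 8 at 4 weeks, with medians of 0.41 and 0.74, values that the rule helped to set. A fixed minimum in UMIs is a higher level in a shallower nucleus, and the part of this in the ratios of marker genes was not tested.

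**Figure D4:**
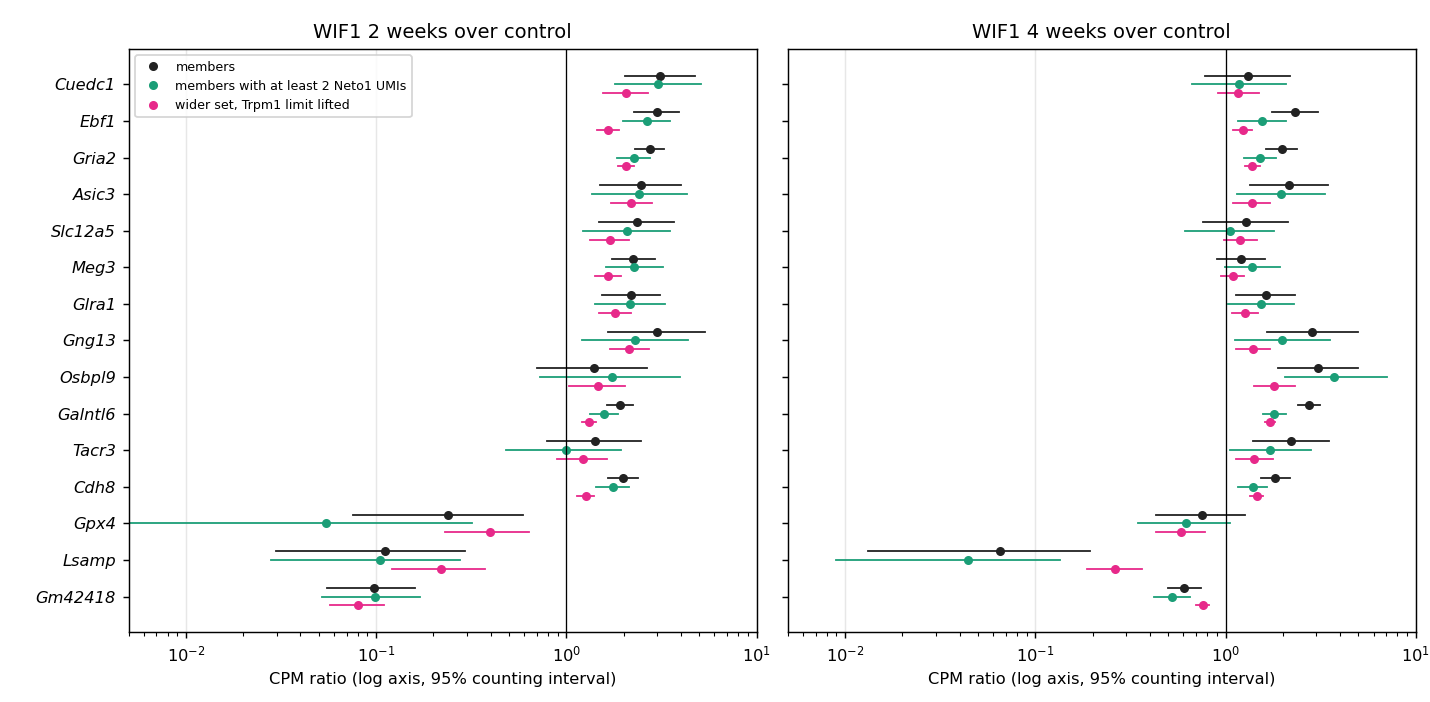
CPM ratios over the control (log axis) with 95% intervals for 15 genes at 2 weeks (left) and 4 weeks (right), in selected nuclei (members), those with at least 2 Neto1 UMIs and the wider set. The left end of the axis cuts the 2-week interval of Gpx4 in Neto1-positive nuclei. At 2 weeks Gria2 lies at 2.74, 2.26 and 2.07 in these sets, and Lsamp at 0.111, 0.105 and 0.22.

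Several genes below the control at 4 weeks were carried by the 4 deepest control nuclei. These held 87% of the control UMIs of the cone opsin gene Opn1sw (40 of 46), 81% of those of Rgs20, 74.5% of Prkca and 74.5% of Pbx3. At 4 weeks Opn1sw was at 0.101 (0.0119 to 0.386) of the control, Rgs20 at 0.0882 (0.0178 to 0.267) and Pbx3 at 0.0844 (0.00998 to 0.32), from 2 or 3 UMIs each. Pdzph1 had 7, 5 and 75 UMIs, of which the 4 deepest nuclei held 66.7% of those in the control (50 of 75), and a 4-week ratio of 0.155, or 0.94 in the wider set. Prkca had 0 UMIs at 4 weeks and was 6.75-fold lower when that 0 was set to the floor of 3 UMIs, which is not a bound. Without nuclei of 10000 UMIs or more the 2-week log2 ratio of Pbx3 was above 0, at 0.09. For Asic2 and Zeb2 a smaller part of the control UMIs lay there. Asic2, an acid-sensing channel, had 8, 2 and 58 UMIs, with a 4-week ratio of 0.0801 (0.00947 to 0.303), and 24.1% of the control UMIs lay in the deepest nuclei. It was one of the genes of Neto1-low nuclei, at 723 CPM there and 48.9 CPM in positive nuclei, and its 4-week ratio was 0.355 (0.0367 to 1.78) in Neto1-positive nuclei, from 2 UMIs. Cabp5 had 13, 3 and 45 UMIs and a 4-week ratio of 0.155 (0.0308 to 0.482), and Zeb2, a zinc finger repressor, 7, 3 and 43 UMIs and 0.162 (0.0322 to 0.506), with 18.6% of the control UMIs in the deepest nuclei.

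At 2 weeks the lowest ratios were those of AY036118 and Gm42418, transcripts that overlap ribosomal RNA sequence, with 3, 74 and 133 UMIs and 16, 128 and 489 UMIs. Their 2-week ratios were 0.0672 (0.0137 to 0.201) and 0.0976 (0.0553 to 0.16). Gpx4, a lipid peroxidase that limits ferroptosis, had 5, 20 and 62 UMIs, with a 2-week ratio of 0.24 (0.0754 to 0.592) and 0.395 (0.231 to 0.64) in the wider set. Gsg1 had 0, 0 and 40 UMIs. With each 0 set to a floor of 3 UMIs over the class, which is not a bound, it was 4.47-fold lower at 2 weeks and 5.74-fold lower at 4 weeks. The 4 deepest control nuclei held 55% of those 40 UMIs (22). Among nuclei under 10000 UMIs the log2 ratio with that floor was -1.49 at 2 weeks and -1.85 at 4 weeks. Adamtsl1, a matrix protein, had 2, 5 and 52 UMIs and a 2-week ratio of 0.115 (0.0135 to 0.436). Tpr, Map4k3 and Fhod3 had 3, 2 and 3 UMIs at 2 weeks and ratios of 0.194 (0.0387 to 0.605), 0.149 (0.0175 to 0.575) and 0.229 (0.0453 to 0.721).

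Synaptic release and channel genes shared no direction. Over the ribbon synapse list 18 of 31 genes were above 1 at 2 weeks and 14 of 31 at 4 weeks, with medians of 0.08 and -0.06. Nsf, the vesicle fusion ATPase, was at 1.74 (1.35 to 2.23) and 1.11, and Cacna1d, an L-type calcium channel, at 1.57 (0.865 to 2.77) and 2.02 (1.23 to 3.3). Stx3, the syntaxin of ribbon synapses, was at 0.509 and 0.34. Cplx4, a ribbon synapse complexin, had 1 UMI at 4 weeks and a ratio of 0.0704 (0.00173 to 0.42). Over voltage-gated channels 15 of 30 and 18 of 31 were above 1. Over the bipolar transcription factor list 9 of 19 and 8 of 19 were above 1, with medians of -0.01 and -0.37. In that list Neurod1 was at 1.97 (1.19 to 3.21) and 0.528 (0.237 to 1.06), and Crx, with 8, 4 and 40 UMIs, at 0.596 and 0.232. Crx is also a photoreceptor gene.

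Photoreceptor RNA, summed over these nuclei, was lower in both WIF1 libraries. The 39 rod genes summed to 11876 CPM at 2 weeks, 8039.7 at 4 weeks and 22640 in the control, with ratios of 0.525 (0.482 to 0.571) and 0.355 (0.324 to 0.388), and 38 of 39 were below 1 in each comparison. The 12 cone genes summed to 499, 489.9 and 1588 CPM. In the wider set the cone genes summed to 1078, 443 and 1048 CPM. Their ratios there were 1.03 (0.859 to 1.23) at 2 weeks and 0.423 (0.354 to 0.502) at 4 weeks, so cone RNA was not lower at 2 weeks. The rod ratios in the wider set were 0.514 (0.483 to 0.546) and 0.48 (0.459 to 0.501). The rod sum was carried unevenly. The median rod share of a nucleus was 0.296% at 2 weeks, 0.287% at 4 weeks and 0.573% in the control, against pooled shares of 1.19%, 0.804% and 2.26%. At least 4% of UMIs were from rod genes in 1, 1 and 8 nuclei, among them control nuclei 1, 3 and 4, which had over 10000 UMIs. Ribosomal protein genes were lower as well at 4 weeks, summed to 8659 CPM against 14599 CPM in the control, a ratio of 0.593 (0.541 to 0.649), with 65 of 77 below 1 and a median of -0.68. At 2 weeks 52 of 77 were below 1, with a median of -0.18. Rps2 had 5, 3 and 40 UMIs and ratios of 0.373 (0.115 to 0.944) and 0.174 (0.0345 to 0.547). Among oxidative phosphorylation genes 49 of 78 and 51 of 78 were below 1, with medians of -0.14 and -0.27. The median share of mitochondrial UMIs was 1.65% and 1.66% in the WIF1 libraries and 2.87% in the control. The part of free photoreceptor RNA in these differences was not tested.

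Genes of the mGluR6 cascade were measured at low counts in these OFF nuclei. Gng13, a G protein gamma subunit of that cascade, had 26, 32 and 26 UMIs, or 481, 461 and 161 CPM, with ratios of 2.98 (1.66 to 5.34) and 2.86 (1.65 to 4.99), and 2.14 and 1.39 in the wider set. Gpr179, which anchors the cascade, had 13, 21 and 13 UMIs and ratios of 2.98 (1.27 to 6.98) and 3.75 (1.79 to 8.15). Rgs11, which speeds up its G protein, had 19, 12 and 16 UMIs and ratios of 3.54 (1.72 to 7.36) and 1.74 (0.752 to 3.92). Gpr179 and Rgs11 were named after their values were seen. All 7 measured genes of the list were above 1 at 2 weeks and 5 of 8 at 4 weeks, with medians of 0.67 and 0.67. Over all genes 44% and 44.9% were above 1. In the wider set 6 of 8 and 5 of 9 genes of the list were above 1, with medians of 0.58 and 0.04, against 48.5% and 46.6% of all genes. The 4-week median was thus near 0 there. Trpm1, which is in this list, was capped per nucleus by the rule, so the counts in selected nuclei are not independent of the selection.

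MHC class I genes, which present peptides to T cells, were higher in sum at 2 weeks, from few UMIs in the selected nuclei. This group was looked at because earlier results of these data had shown it in other cells. B2m, the light chain, had 5, 0 and 1 UMIs at 2 weeks, 4 weeks and in the control, a 2-week ratio of 14.9 (1.67 to 705). For the wider set its UMIs were 14, 4 and 2, or 87.7, 9.73 and 4.34 CPM, with ratios of 20.2 (4.64 to 183) and 2.24 (0.322 to 24.8). H2-K1, a heavy chain, had 6, 4 and 4 UMIs, a 2-week ratio of 4.47 (1.06 to 21.5), and in the wider set 37, 16 and 17 UMIs, or 232, 38.9 and 36.9 CPM, with ratios of 6.29 (3.45 to 11.9) and 1.06. H2-D1, another heavy chain, had 4, 5 and 6 UMIs and 31, 24 and 15 in the wider set, with ratios there of 5.97 (3.13 to 11.9) and 1.79. B2m was highest at 2 weeks in other bipolar classes too, at 104, 7.17 and 5.34 CPM in OFF nuclei of types 3 and 4 and 112, 4.5 and 9.83 CPM in rod bipolar nuclei. Summed over the list of 23 genes the selected nuclei were at 536 CPM at 2 weeks and 245 CPM at 4 weeks, against 242 CPM in the control, with ratios of 2.22 (1.32 to 3.68) and 1.01 (0.537 to 1.83). In the selected nuclei 3 of the 23 genes were measured at 2 weeks, all above 1, with a median log2 ratio of 0.99. At 4 weeks 2 were measured, 1 on each side of 1, with a median of 0.47. All 8 genes measured in the wider set were above 1 at 2 weeks, with a median log2 ratio of 1.58, and 4 of 7 at 4 weeks, with a median of 0.08. Of 57 interferon response genes 1 was measured in each comparison of the selected nuclei, at 4 weeks Stat2, with 6 UMIs against 8 in the control (log2 ratio 0.80). Their medians in the wider set were 0.31 over 5 genes and -0.07 over 8. Microglial and lymphocyte markers were at the low counts given above.

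**Figure D5:**
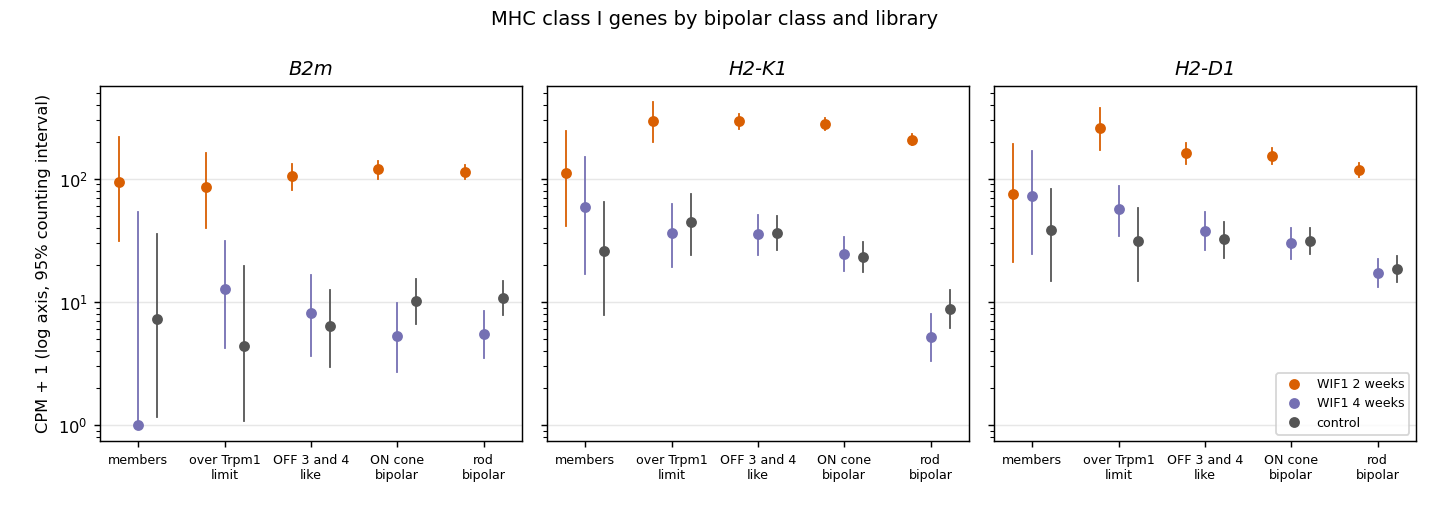
CPM + 1 (log axis) of B2m, H2-K1 and H2-D1 with 95% Poisson intervals, by class of bipolar nuclei and library (2 weeks, 4 weeks, control). In the nuclei over the Trpm1 limit H2-K1 is at 294 CPM at 2 weeks, 35.1 CPM at 4 weeks and 43.4 CPM in the control.

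No Wif1 UMI was found in these nuclei or in the wider set, in any library. For scale, 3 UMIs would be 55.5 CPM at 2 weeks, 43.2 CPM at 4 weeks and 18.6 CPM in the control, and 18.8, 7.3 and 6.51 CPM in the wider set. Tcf4, the transcription factor gene of that symbol, had 20, 23 and 92 UMIs, or 370, 331 and 571 CPM, in 14, 14 and 23 nuclei. Its ratios were 0.648 (0.378 to 1.06) and 0.581 (0.351 to 0.925), and 0.825 (0.612 to 1.1) and 0.863 (0.701 to 1.06) in the wider set, where both intervals hold 1. Tcf7l2, the Wnt effector whose protein is also called TCF4, had 0, 0 and 3 UMIs. Over Wnt receptors and beta-catenin genes 4 of 11 were above 1 at 2 weeks and 5 of 10 at 4 weeks, with summed ratios of 1 (0.79 to 1.26) and 1.04 (0.838 to 1.28). Of 13 Wnt feedback targets 2 were measured, with medians of 0.11 and 0.14. The 33 Wnt ligand and inhibitor genes held 1, 3 and 7 UMIs, and 0 of them were measured.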

How the data were processed

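Per the file headers, the deposited matrices of the 3 libraries hold raw counts for each called barcode, RNA UMIs for 32285 genes and ATAC counts for peaks. The submitters' processing notes name Cell Ranger ARC 2.0.1, Signac 1.12.0 and Seurat 5.0.1, with no roles, and the build mm10. Peaks were called separately in each library (103911 at 2 weeks, 75686 at 4 weeks and 54429 in the control), so peak counts were set side by side only within a library. Most ATAC values were even (89.2%, 87.6% and 82.5%), so their intervals rest on counts divided by 2. Nuclei share their library, so all comparisons are descriptions, and depth and photoreceptor RNA differ with the group.

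UMIs were summed over the nuclei of a class and scaled to CPM. CPM have exact Poisson intervals, shares Clopper-Pearson intervals, and ratios conditional binomial intervals. For rankings a library under 3 UMIs was set to 3, and a ratio whose direction this would turn was set to 0 on the log2 scale. ON cone and rod bipolar nuclei had over 2 UMIs of Grm6 and Trpm1. Rod bipolar nuclei had at least 3 of Prkca, and ON cone bipolar nuclei had fewer, with a UMI of Grm6 or Isl1. OFF nuclei of types 3 and 4 had at least 8 UMIs of their markers, and rod-rich nuclei at least 5% rod-list UMIs. A list is given by the counts and the median of its measured genes, those with 10 UMIs or more in the pair. Doublets were called with the Scrublet method in scanpy 1.11.5 at 0.8% per 1000 barcodes and left out only as an alternative.

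Named genes were the 10 highest and 10 lowest ratios of each comparison among genes of at least 30 UMIs and 50 CPM (without mitochondrial, sex-linked, immunoglobulin and rod genes), list members past 1.5-fold with at least 30 UMIs, the rule's genes, Wif1, Tcf4 and Tcf7l2, and the 10 genes furthest above other bipolar nuclei. Genes named outside this rule, among them B2m, H2-K1, H2-D1, Syt2, Otx2, Isl1, Gpr179, Rgs11, Stat2 and those of the Neto1 split, were chosen after their values were seen. The selected nuclei and all lists were chosen with earlier results of these data known. Computations used Python 3.11.15, numpy 2.4.6, scipy 1.17.1, pandas 2.3.3 and matplotlib 3.10.9, and were tested on simulated data. The spatial samples were not used here, and some genes that met the rule are not reported here.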

Additional observations from a re-analysis of the deposited data

How the results depend on the processing

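No paired analysis was possible because each group is 1 library. The wider set, nuclei with at least 2 Neto1 UMIs and nuclei under 10000 UMIs were alternatives chosen after seeing the data. The share ratio at 2 weeks was 1.19 among nuclei of at least 1000 UMIs and 1.31 after thinning to 1000 UMIs, and lay between 0.388 and 0.822 under the other settings and denominators. That at 4 weeks was 1.01 in the wider set over bipolar nuclei and lay between 0.524 and 1.13 under the others, the highest in Neto1-positive nuclei over OFF bipolar nuclei. Genes 2-fold higher and lower numbered 7 and 34 at 2 weeks and 5 and 20 at 4 weeks after thinning to 2000 UMIs, 7 and 43 and 7 and 50 with a minimum of 50 UMIs, and 984 and 360 and 902 and 526 with a minimum of 3 UMIs. That last minimum turned the majority of calls to higher. Genes higher at 4 weeks numbered 9 with mean nucleus CPM and 30 with ratios divided by their median, and the share of higher among all calls was then 18.4%, against 11.2%. The wider set gave 28 higher and 229 lower at 2 weeks. Nuclei with at least 2 Neto1 UMIs gave 53 lower at 2 weeks and 10 higher and 45 lower at 4 weeks. Nuclei under 10000 UMIs gave 67 lower at 2 weeks and 10 higher and 50 lower at 4 weeks. In the wider set the interferon response median was 0.31 at 2 weeks and -0.07 at 4 weeks. Directions turned for Pbx3 (0.09) at 2 weeks in nuclei under 10000 UMIs, for Opn1sw (0.09) and Dcc (-0.03) at 2 weeks in the wider set, and for Ncam2 (0.17) at 4 weeks in Neto1-positive nuclei. The causes were not tested. Of 1831 recomputed values of named genes, 1654 moved within their counting interval, 173 moved beyond it and 4 turned. The MHC class I and interferon medians had no value under thinning or a list minimum of 30 UMIs. Without the top nucleus of each gene the interferon median had a value only at 4 weeks, and in Neto1-positive nuclei the MHC median had one only at 4 weeks. The interferon median at 2 weeks had none at a marker minimum of 12 UMIs. Depth limits the single values, since 30 UMIs in one library give wide intervals and most interferon genes were under the minimum.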

Other observations

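Clock and chaperone genes were measured in enough nuclei to describe. Of 15 measured circadian clock genes, 9 were higher than in the control in either comparison, with median log2 ratios of 0.21 and 0.37 and summed ratios of 1.12 (0.968 to 1.29) and 1.09 (0.957 to 1.25). Rora, a nuclear receptor of the clock, had 150 UMIs at 2 weeks, 180 at 4 weeks and 340 in the control, with ratios of 1.32 (1.08 to 1.6) and 1.23 (1.02 to 1.48). Of 11 heat shock genes, 3 were higher at 2 weeks and 7 at 4 weeks than in the control, with medians of -0.39 and 0.20. Hsp90aa1, a cytosolic chaperone, had 38, 81 and 164 UMIs, with ratios of 0.691 (0.472 to 0.988) and 1.15 (0.868 to 1.51). These genes were named after their values were seen.

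Müller glia genes held 11 UMIs at 2 weeks, 41 at 4 weeks and 42 in the control in these nuclei. Apoe, a lipid carrier of glia, had 21 UMIs at 4 weeks, in 2 of 22 nuclei, against 7 at 2 weeks and 7 in the control.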
